A study of Mus musculus with 10 samples.

Results

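Homologous recombination and the Fanconi anaemia pathway were represented by 38 listed genes, chosen by name, of which 36 had a probe set naming that gene and no other. These 36, of 18193 genes measured, had 83 such probe sets, 53 on the Affymetrix chip 430A and 30 on 430B. Xrcc2 and Rbbp8 were not analysed here. The mice carried CAGGS-CreER, a tamoxifen-activated recombinase under a broadly active promoter, and R26-SmoM2, an activated Smoothened that switches on Hedgehog signalling. All had received tamoxifen on postnatal day 10, in a dose of 1 mg for each 40 g of body weight. On each chip, 3 arrays held medulloblastoma, a tumour of the cerebellum, and 2 held adjacent cerebellar tissue from mice of that genotype and treatment, which the labels call wild type. The cerebellum arrays are thus no untreated control, and the age at collection is not given in the sources used here. The question was how far the repair genes differed between tumour and adjacent cerebellum.

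Homologous recombination repairs a double-strand break by copying an intact sister DNA molecule, so it works mainly in S and G2 phase, when a sister is present. The break is sensed and its ends are trimmed, the single strand is made ready for invasion of the sister with the help of BRCA1, PALB2 and BRCA2, and the joined molecules are then taken apart. The Fanconi proteins detect crosslinks between DNA strands at stalled replication forks and hand the lesion on to recombination. Granule neuron precursors, the cells from which Hedgehog-driven medulloblastoma arises, divide rapidly after birth, and loss of recombination genes is known to harm such dividing precursors.

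Promoter sequences came from RefSeq (GRCm38.p6, 250 bases before to 50 after each annotated start), which held 30 of the 38 genes. Rad54b, Rad51d, Xrcc2, Fancd2, Rad50, Nbn, Rbbp8 and Exo1 had no entry. An E2F-type motif, read on both strands as TTTGGCGC, TTTCCCGC, TTTGCCGC or TTTCGCGC, the letters bound by the E2F factors of S phase genes, lay in 6 of the 30 genes (20.0%) and in 2.6% of 27025 genes in the table. The 6 were Brca2, Rad51c and Chek2, whose transcripts rose in the tumours, and Bard1, Fancg and Rmi1, which were not called. The stretches below show the motif in capitals for a pair of genes that rose, Brca2 (plus strand, chr5:150522423-150522490, match at -168 from the start) and Chek2 (plus strand, chr5:110839801-110839868, match at -152), and for a pair that did not pass the test, Bard1 (minus strand, chr1:71103144-71103211, match at -209) and Fancg (minus strand, chr4:43010316-43010383, match at -52).
Brca2: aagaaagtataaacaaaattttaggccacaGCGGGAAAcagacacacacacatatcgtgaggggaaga
Chek2: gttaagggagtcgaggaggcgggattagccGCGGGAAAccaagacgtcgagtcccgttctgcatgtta
Bard1: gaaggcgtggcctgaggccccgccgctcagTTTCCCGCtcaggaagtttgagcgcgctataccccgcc
Fancg: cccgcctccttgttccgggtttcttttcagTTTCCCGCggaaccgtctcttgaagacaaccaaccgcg

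The CCAAT motif, bound by NF-Y and searched as CCAAT on both strands, lay in 19 of the 30 genes (63.3%) and in 41.1% of all genes in the table. It lay in 8 of the 14 genes with a promoter entry that rose and in 11 of the 16 that were not called. The CHR motif of late cell cycle genes, TTTGAA on both strands, lay in 3 of the 30 (10.0%) and in 20.2% of all genes. No match of 1 of these motifs shared a base with a match of another in these promoters, and a match is a description of letters only. Brip1 (minus strand, chr11:86201213-86201302) and Fancf (minus strand, chr7:51862284-51862395), which rose, are shown with 3 CCAAT matches each, beside Xrcc3 (minus strand, chr12:111813892-111814126), which was not called and held 6.
Brip1: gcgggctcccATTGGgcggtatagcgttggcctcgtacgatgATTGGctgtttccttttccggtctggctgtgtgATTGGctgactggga
Fancf: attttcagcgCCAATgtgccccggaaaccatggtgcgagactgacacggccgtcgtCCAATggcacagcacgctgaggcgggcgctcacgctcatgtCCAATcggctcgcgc
Xrcc3: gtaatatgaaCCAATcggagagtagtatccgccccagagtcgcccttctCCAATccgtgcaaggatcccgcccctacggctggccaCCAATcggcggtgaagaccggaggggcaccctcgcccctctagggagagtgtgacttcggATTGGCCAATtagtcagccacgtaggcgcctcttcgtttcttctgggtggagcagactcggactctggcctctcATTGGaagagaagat

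**Figure D1:**
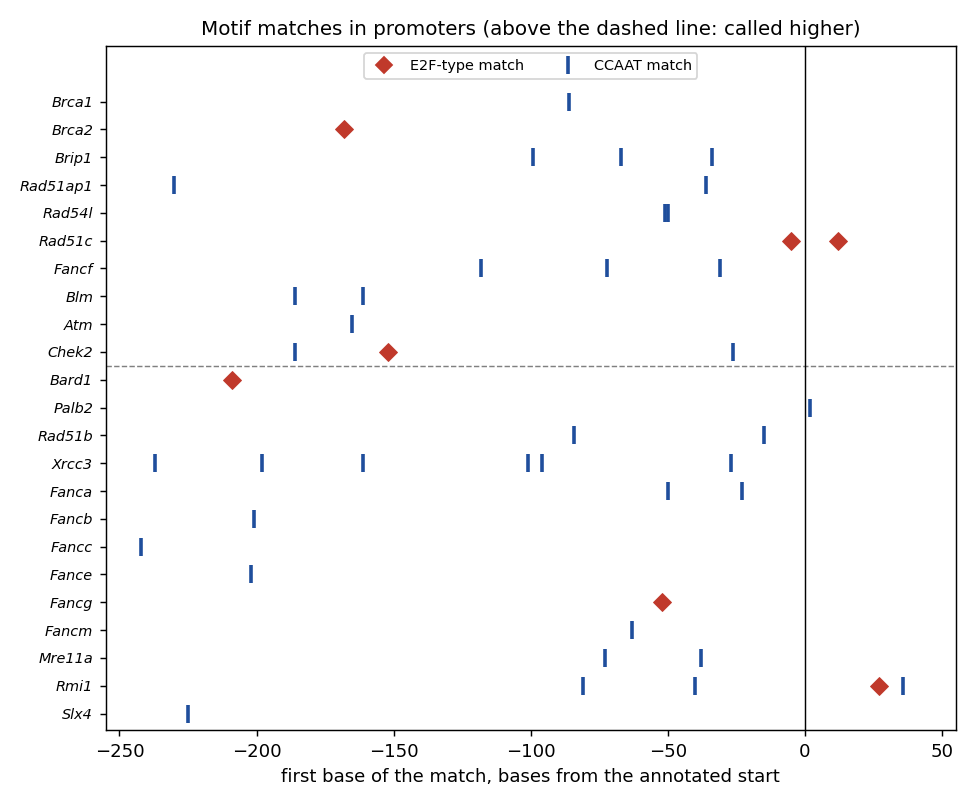
Distance in bases from the annotated start (x axis, 0 marked) of each E2F-type and CCAAT match in the promoters of the genes that hold either; genes above the dashed line were called higher in medulloblastoma. E2F-type matches stand on both sides of the line, in 3 genes each.

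By role, 3 of 5 BRCA genes, 3 of 4 genes of strand invasion and annealing, 2 of 2 Fanconi ID2 genes and 4 of 4 checkpoint kinases rose in medulloblastoma. So did 1 of 8 genes of the Fanconi core, 1 of 4 of the BCDX2 and CX3 complexes, 1 of 4 of end sensing and resection and 2 of 5 of dissolution and resolution. These counts describe the groups, which were not tested as groups. Of the 36 genes, each read by 1 probe set, 17 rose and none fell in limma at an adjusted p below 0.05, and 8 of the 17 rose by at least 1 log2 unit. Of all genes, 7.77% rose and 12% fell, while 3.96% rose and 6.68% fell by at least 1 log2 unit. The median log2 fold change was 0.41 over the 36 genes and -0.03 over all genes. Where a gene had several probe sets of like name on 1 chip, the brightest over all arrays stood for it, which can favour a probe set that is bright in the tumours. With the mean over a gene's probe sets, 17 genes rose again and the median was 0.408, but the folds of the genes with the largest rises were smaller, at 1.246 for Rad54l, 1.542 for Rad51ap1, 1.667 for Exo1, 1.174 for Brca1 and 0.879 for Chek1. At an unadjusted p below 0.05, 18 of the 36 were higher and 1, Mus81, was lower. The shares of all genes at this unadjusted limit are not given, so these counts have nothing to be set against. Every tumour array read above every cerebellum array for 20 of the 36, against 19.7% of all genes. RNA came from tissue pieces, so more or fewer cells of a type and more or less RNA per cell cannot be told apart.

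By probe set, 23 of 53 on 430A rose and none fell, where 9.33% of all probe sets rose and 14.0% fell. At an unadjusted p below 0.05, 3 were lower, with no share of all probe sets given at that limit. On 430B, 8 of 30 rose and 1 fell, where 4.88% of all rose and 6.58% fell. With few arrays these counts moved with each of them. The shares of all genes or probe sets called in the fits with an array left out are not given. A general loss of calls can thus not be told apart from a loss in these genes. Of the genes, 10 rose without cerebellum 1, 7 without cerebellum 2 and 11 without the arrays numbered tumour 1. The 430A probe sets that rose then numbered 15 without cerebellum 1 and 10 without cerebellum 2. Those of 430B numbered 1 without cerebellum 1, none without cerebellum 2, 4 without tumour 1 and 2 without tumour 2, and the lower call on that chip ended without cerebellum 1, cerebellum 2 or tumour 2. All 17 genes stayed above 0 in all 5 of these fits. This was fixed beforehand, since every tumour array read above every cerebellum array in each of the 17. Brca1, Brca2, Rad51ap1, Rad54l, Exo1 and Chek1 kept the call in each fit.

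**Figure D2:**
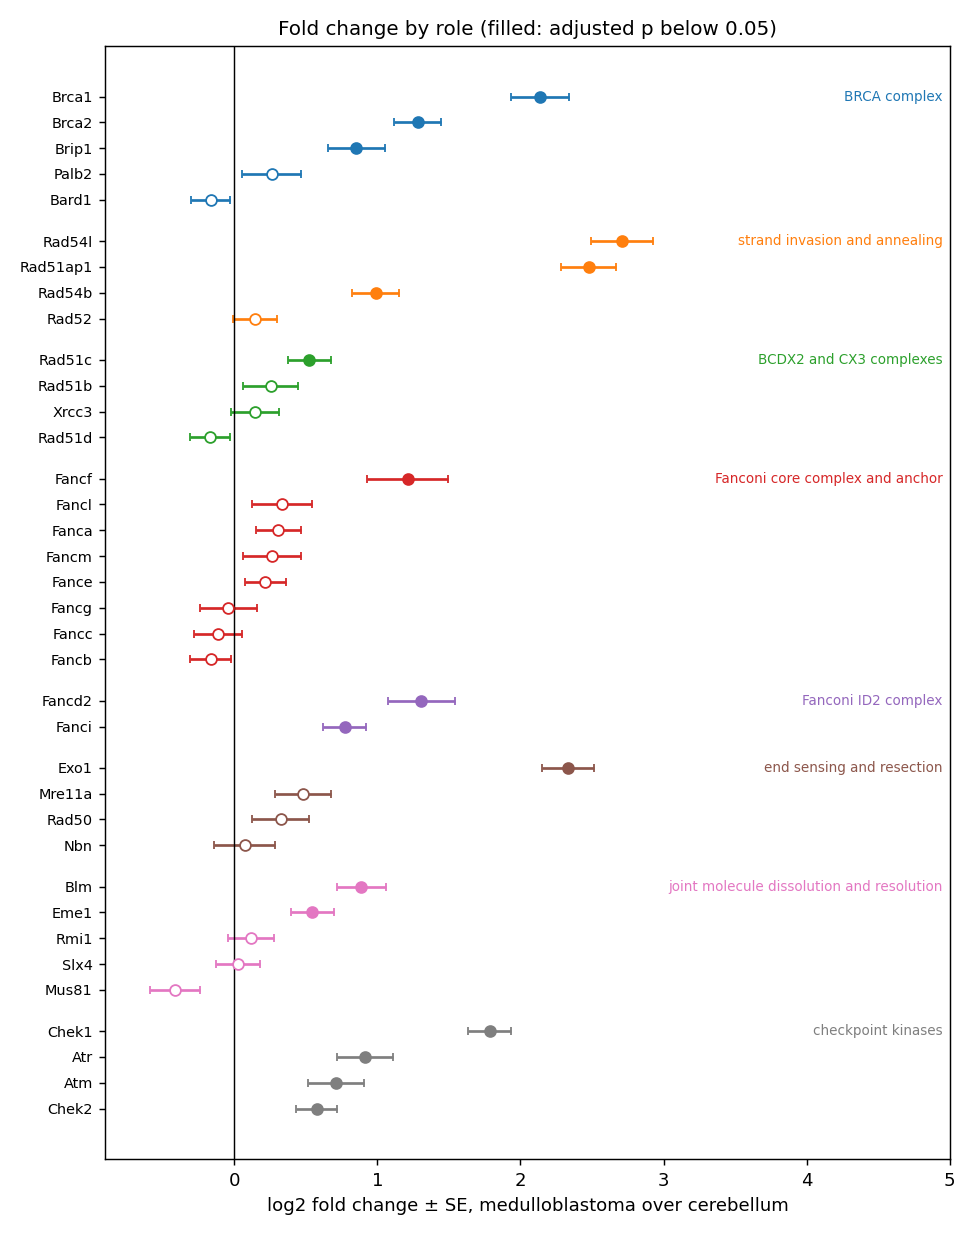
Log2 fold change of medulloblastoma over cerebellum with its SE (x axis) for 36 genes, grouped by role; filled points have an adjusted p below 0.05. The filled points number 17 and lie between 0.53 (Rad51c) and 2.71 (Rad54l).

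Among the BRCA genes, Brca1, a ubiquitin ligase subunit that starts recombination at breaks, gave tumour intensities of 93.8, 61.4 and 103 and cerebellum intensities of 6.92 and 6.80. All tumour arrays lay above both cerebellum arrays, with log2 fold change 2.14 ± 0.20 (SE, adjusted p = 7.43e-05). This fold is on the log2(value + 16) scale, which understates the change of dim probe sets. No detection measure was used, so low cerebellum readings such as these are not shown to be above background. With the mean over the 4 probe sets of Brca1 it was 1.174. Brca2, which acts at the trimmed single strand, read 81.3, 87.5 and 92.7 against 29.3 and 23.7, or 1.28 ± 0.16 in log2 fold change (adjusted p = 4.01e-04). Brip1, a helicase that binds BRCA1, read 27.2, 28.6 and 13.1 in the tumours of 430B against 6.05 and 4.40. The lowest tumour array lay above both cerebellum arrays, with 0.85 ± 0.20 (adjusted p = 0.0269). Its call ended without cerebellum 1 (0.91), cerebellum 2 (0.80), tumour 1 (0.765) or tumour 2 (0.74). Palb2, which bridges BRCA1 and BRCA2, had 0.26 ± 0.21 (adjusted p = 0.523), and Bard1, the partner that BRCA1 needs as a ligase, had -0.17 ± 0.14 (adjusted p = 0.464), with overlapping groups in both.

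Among the genes of strand invasion and annealing, Rad54l, a motor protein that opens the target DNA during strand invasion, had the largest rise of the 36 genes with the chosen probe sets and all arrays. With the mean over probe sets, Exo1 had the largest rise, and Rad51ap1 (1.542) and Brca2 (1.281) also exceeded Rad54l (1.246). Without tumour 2, Rad51ap1 had 2.589 and Rad54l 2.54. Rad54l read 160, 213 and 133 in the tumours and 14.9 and 9.02 in cerebellum, or 2.71 ± 0.22 on the log2 fold change scale (adjusted p = 2.88e-05). Rad51ap1, which stimulates the joining of strands, read 165, 112 and 129 against 11.8 and 10.1, with 2.48 ± 0.19 (adjusted p = 2.40e-05). The groups did not overlap in either. Rad54b, a relative of Rad54l, read 34.1, 30.9 and 24.2 on 430B against 9.30 and 4.84, with 0.99 ± 0.16 (adjusted p = 0.00495), and its call ended without cerebellum 2 (0.85). Rad52, which anneals single strands and is largely dispensable in mice, had 0.14 ± 0.15 (adjusted p = 0.593) with overlapping groups. Of the BCDX2 and CX3 complexes, which assist strand invasion, 1 of 4 measured genes rose. Rad51c read 41.6, 42.4 and 48.4 against 24.5 and 27.0, with 0.53 ± 0.15 (adjusted p = 0.0317), and was not called without cerebellum 1 (0.48), cerebellum 2 (0.57), tumour 1 (0.56) or tumour 3 (0.475). Rad51b had 0.26 ± 0.19, Xrcc3 0.14 ± 0.17 and Rad51d -0.17 ± 0.14, with adjusted p of 0.417, 0.685 and 0.473.

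**Figure D3:**
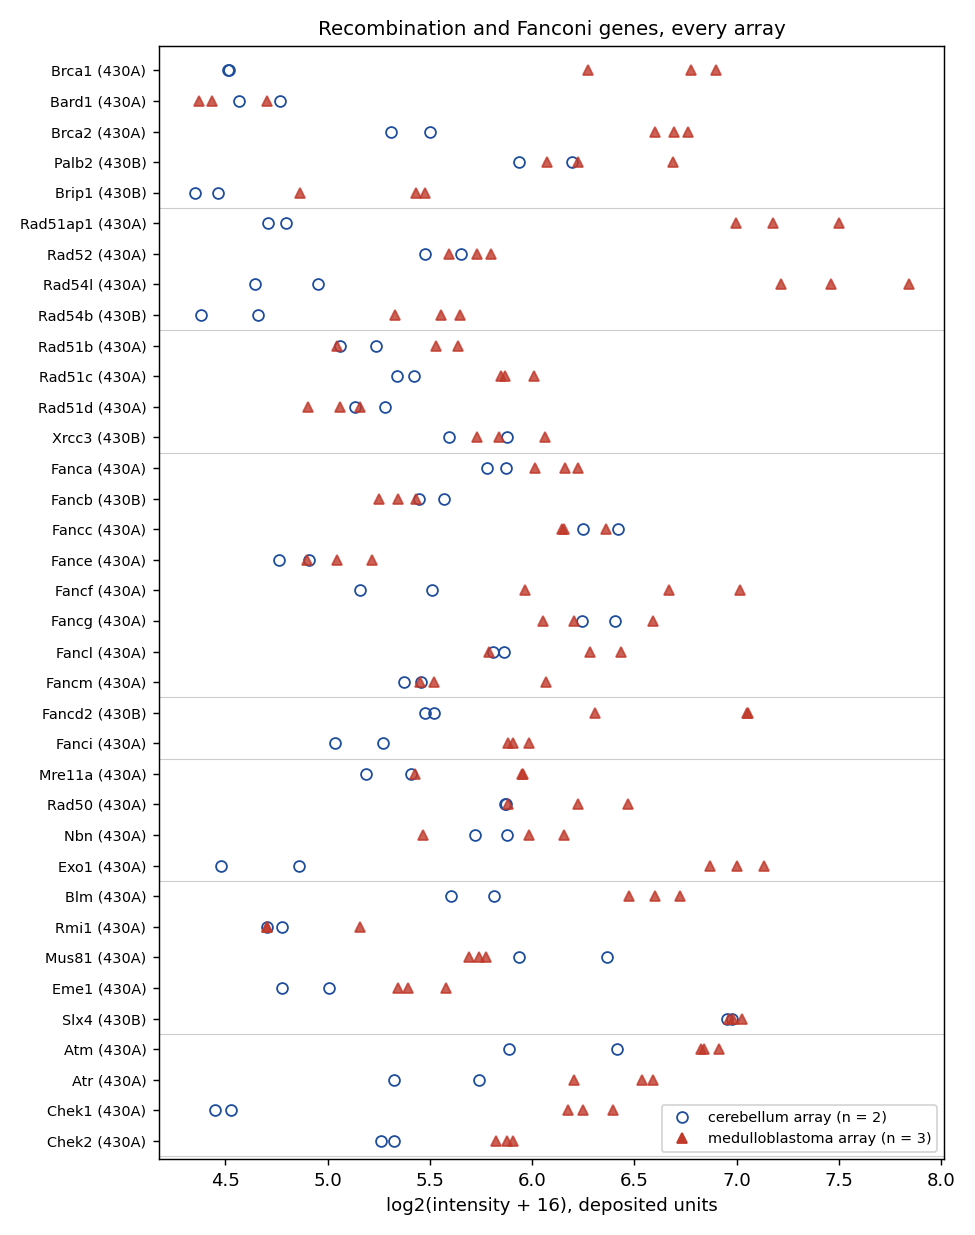
Log2(intensity + 16) of every array (x axis) for the probe set that stands for each of 36 genes, with cerebellum arrays as circles and medulloblastoma arrays as triangles; rows are not comparable with each other, since each is another probe set. Tumours lie to the right of both cerebellum arrays in 20 rows and to the left in 2, Fancb and Mus81. The share of all genes is 19.7% to the right and is not given to the left.

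In the Fanconi pathway the core complex, the ligase that marks the FANCD2 and FANCI pair at a crosslink, held 1 gene of 8 that rose. Fancf, an adaptor of the core, read 85.7, 46.4 and 113 against 29.6 and 19.7, with 1.21 ± 0.28 (adjusted p = 0.0123), and was not called without cerebellum 1 (1.39), cerebellum 2 (1.04) or tumour 1 (1.15). The values of the other core genes were Fancl, the catalytic subunit, 0.33 ± 0.21, Fanca 0.31 ± 0.16, Fancm, the DNA-bound anchor, 0.26 ± 0.20, Fance 0.22 ± 0.14, Fancg -0.04 ± 0.20, Fancc -0.11 ± 0.17 and Fancb -0.16 ± 0.14, with adjusted p from 0.216 (Fanca) to 0.922 (Fancg). Without tumour 2, Fancl had 0.52 and an adjusted p of 0.0368. Both genes of the ID2 pair rose. Fancd2, the ubiquitinated clamp, read 117.16, 116.64 and 63.3 on 430B against 29.9 and 28.5, with 1.31 ± 0.24 (adjusted p = 0.00787). Its call ended without cerebellum 1 (1.33), cerebellum 2 (1.29) or tumour 2 (1.19). Fanci, the partner in the clamp, read 43.9, 43.0 and 47.4 against 16.8 and 22.6, with 0.77 ± 0.15 (adjusted p = 0.00508), and was not called without cerebellum 1 (0.65).

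Among the genes that sense and trim broken ends, Exo1, a nuclease of long-range resection and mismatch repair, read 112, 101 and 124 in the tumours and 13.03 and 6.31 in cerebellum. The groups lay far apart, and the change was 2.33 ± 0.18 (adjusted p = 2.54e-05). The MRN complex, which binds the break and begins resection, did not pass the test in any subunit. Mre11a, its nuclease, had 0.48 ± 0.20 (adjusted p = 0.121), Rad50, its ATPase, 0.32 ± 0.20 (adjusted p = 0.3) and Nbn, which recruits ATM, 0.07 ± 0.21 (adjusted p = 0.868). Mre11a read 46.1, 27.0 and 45.9 against 20.5 and 26.4, and without tumour 2, the lowest tumour array, it had 0.66 with an adjusted p of 0.0161.

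Of the genes that dissolve or cut joined molecules, Blm, the helicase mutated in Bloom syndrome, read 81.1, 72.8 and 89.7 against 40.3 and 32.7. It had 0.89 ± 0.17 (adjusted p = 0.00427), and the call ended without cerebellum 2 (0.78). Eme1, the partner that MUS81 needs to cut, read 31.7, 24.6 and 26.1 against 16.2 and 11.5, with 0.55 ± 0.15 (adjusted p = 0.0257), and was not called without cerebellum 1 (0.66), cerebellum 2 (0.43), tumour 1 (0.48) or tumour 3 (0.57). Mus81 itself, the nuclease of that pair, read 38.8, 37.4 and 35.7 in the tumours against 45.3 and 66.5. The tumours lay below both cerebellum arrays, but the cerebellum arrays were far apart. The log2 fold change of -0.42 ± 0.18 did not pass the test (adjusted p = 0.131). The other Mus81 probe set read 34.04, 34.38 and 31.7 against 45.02 and 51.35, with the cerebellum arrays nearer each other. It had -0.38 ± 0.15 and was not called either (adjusted p = 0.11). Slx4, the scaffold that gathers these nucleases, had 0.03 ± 0.15 (adjusted p = 0.948), and Rmi1, which works with BLM, 0.11 ± 0.16 (adjusted p = 0.696).

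All 4 checkpoint kinases rose. Chek1, the kinase that holds the cycle when forks stall, read 60.03, 56.3 and 68.4 in the tumours and 7.08 and 5.88 in cerebellum, with 1.78 ± 0.15 (adjusted p = 3.73e-05). Atr, which activates CHEK1 at single-stranded DNA, read 80.3, 57.8 and 76.8 against 37.4 and 24.0, with 0.91 ± 0.20 (adjusted p = 0.00815), and was not called without cerebellum 2 (0.705). Neither gene had overlapping groups. Atm, which answers double-strand breaks, read 104, 98.6 and 97.6 against 69.3 and 43.3, with 0.71 ± 0.20 (adjusted p = 0.0274). It depended on the cerebellum arrays, with 0.97 without cerebellum 1 and 0.45 without cerebellum 2, and its call ended without cerebellum 2, tumour 1 (0.68) or tumour 3 (0.725). Chek2, the kinase downstream of ATM, read 42.9, 44.0 and 40.7 against 24.1 and 22.4, with 0.58 ± 0.14 (adjusted p = 0.0177), and was not called without cerebellum 1 (0.61), cerebellum 2 (0.54) or tumour 1 (0.57).

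**Figure D4:**
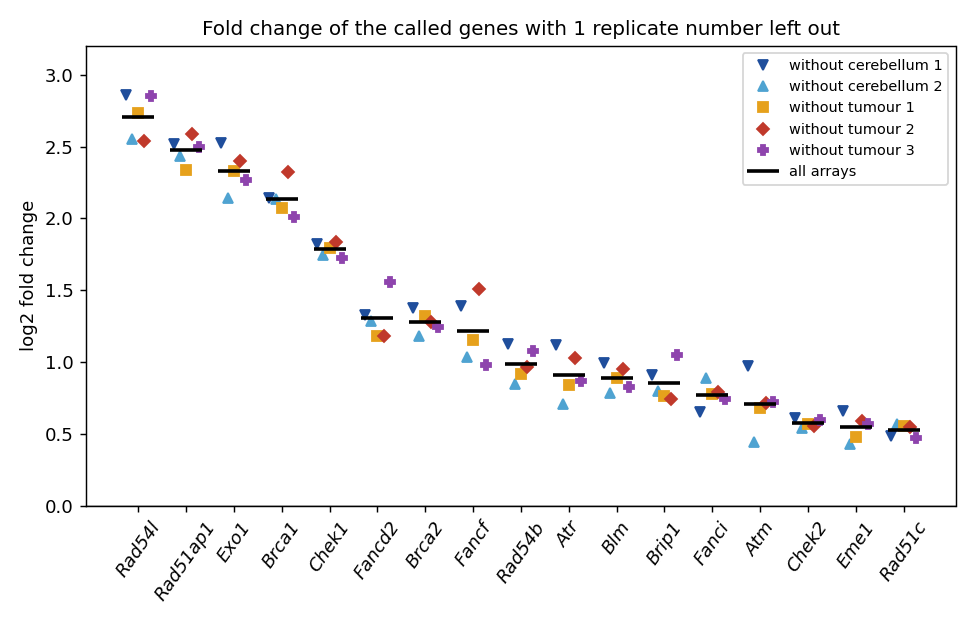
Log2 fold change (y axis) of the 17 genes that rose, with all arrays (bar) and with 1 replicate number of a tissue left out on both chips (symbols). All symbols lie above 0, as they must, since every tumour array read above every cerebellum array in these genes. Atm moves most among the cerebellum fits, from 0.45 to 0.97.

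Several genes had more than 1 probe set, 26 in all, and in 13 of these no probe set was called. In 3, Rad51ap1, Rad51c and Atm, all probe sets rose, and in 10 the probe sets differed in call. Brca1 rose in 3 of 4 probe sets, with the fourth at 0.05 ± 0.16. Chek1 rose in 2 of 5, the representative and another 430A probe set at 1.88 ± 0.18, with the others between -0.26 and 0.31. Rad54l rose in 2 of 4 (2.71 and 0.65), Exo1 in 2 of 3 (2.33 and 1.002) and Fancd2 in 3 of 4. Fancf rose in 2 of 3, including the 430B probe set at 0.92 ± 0.17, where the tumours read 118, 128 and 129 and the cerebellum arrays 66.8 and 50.7. Fanci rose in 1 of 2 and Atr in 1 of 3, the other Atr probe sets having 0.49 and 0.50. The sources used here do not say which transcript parts these probe sets read.

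For Fancb and Rad51d the probe set decided the call. Fancb, a core gene, had -0.16 on the probe set chosen to represent it, with tumours at 24.6, 27.2 and 22.1 and cerebellum at 31.5 and 27.6. The other probe set rose by 0.97 ± 0.16 (adjusted p = 0.00523), with tumours at 43.3, 37.3 and 29.6 and cerebellum at 12.1 and 9.42. The groups did not overlap in either, in opposite directions. Rad51d was called in 1 of 4 probe sets, on 430B, where the tumours read 26.4, 23.8 and 26.5 and the cerebellum arrays 59.3 and 47.0, or -0.73 ± 0.15 (adjusted p = 0.0139). This was the only one of the 83 probe sets called lower with all arrays, and its call ended without cerebellum 1, cerebellum 2 or tumour 2. The other Rad51d probe sets lay between -0.17 and -0.10 with overlapping groups.

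**Figure D5:**
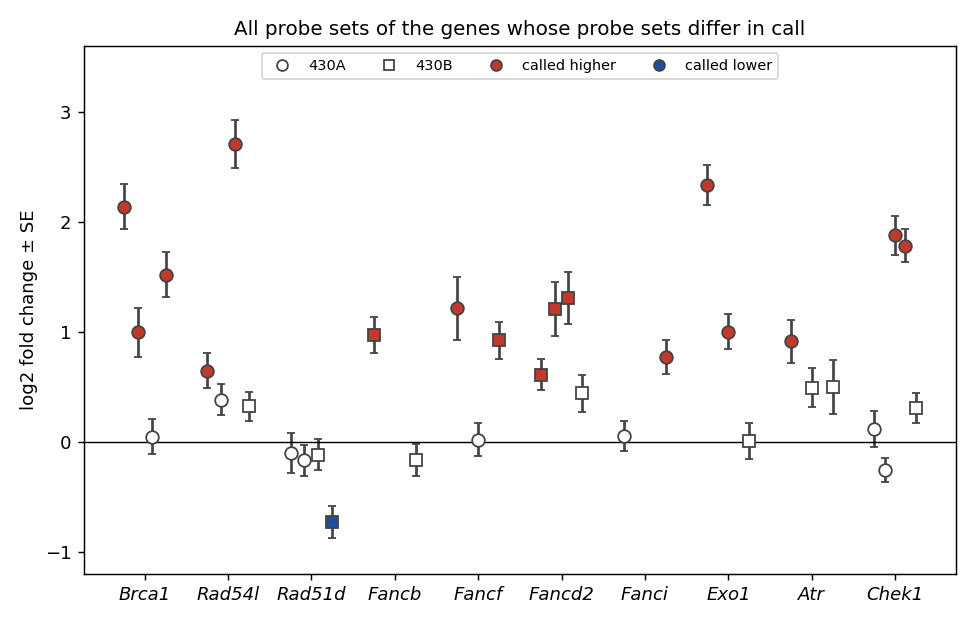
Log2 fold change with its SE (y axis) of all probe sets of the 10 genes whose probe sets differ in call, circles for 430A and squares for 430B, red where called higher, blue where called lower and white where not called. Rad51d holds the 1 blue point, at -0.73.

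The tumour arrays were not alike. On 430A, the tumour labelled 2 was the lowest of the tumours in 15 of the 23 probe sets that rose, and the median difference from cerebellum over 29 genes was 0.59, 0.40 and 0.60 log2 units in tumours 1, 2 and 3. On 430B, the tumour labelled 3 was the lowest in 6 of the 8 that rose, as in Brip1 and Fancd2. The shares of all probe sets with these tumours lowest are not given. Whether these genes differ in this from the rest of each array was not tested. Over the 100 probe sets that both chips hold, deviations from the tumour mean correlated with r = 0.862 between tumour 2 of 430A and tumour 3 of 430B, and with -0.684 between the arrays both numbered 2. Tumour 1 of 430A went with tumour 2 of 430B (r = 0.83) and tumour 3 with tumour 1 (r = 0.729). No tumour was therefore followed from chip to chip by number, but the counts of genes without a replicate number leave out that number on both chips, which for the tumours are arrays that did not go together. On 430B the log2 median of those probe sets was 8.01 and 7.96 in tumours 1 and 2, 7.33 in tumour 3 and 7.51 and 7.54 in cerebellum. On 430A it was 7.27, 7.30 and 7.39 in tumours 1, 2 and 3 and 7.44 and 7.45 in cerebellum. Scaling the 430B arrays on the shared probe sets shifted the median log2 fold change of all probe sets of 430B to -0.13. It left 29.3% of calls on the higher side (730 higher, 1762 lower) against 42.6% as deposited (1099 and 1481). Of the 30 repair gene probe sets on 430B, 6 then rose and 1 fell, beside 3.24% and 7.83% of all, and Brip1 (0.74), Rad54b (0.88) and Fancd2 (1.12) kept their calls.

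Other genes of recombination, crosslink repair and damage signalling, 59 measured of 67 listed, were also read by 1 probe set each. At an unadjusted p below 0.05, 3 of these were lower, with no share of all genes given at that limit. By the adjusted p, 20 rose and none fell, against 7.77% and 12% of all genes. They numbered 12 higher without cerebellum 1 and 9 without cerebellum 2. Over all probe sets of 430A, 9.33% rose and 14.0% fell, and of 430B 4.88% and 6.58%. Of those of the wider list, 21 of 72 on 430A rose and 3 fell, and 10 of 57 on 430B rose and none fell. The 3 lower ones belonged to Faap20, a subunit of the Fanconi core (-1.11 in both, adjusted p = 0.00225 and 0.00186), and Rif1, which limits resection (-0.76, adjusted p = 0.0301), whose chosen probe sets were not called; they are named after their values were seen. By chosen probe set, the 10 largest rises were in Fignl1, an ATPase of recombination (2.22 ± 0.22), Clspn, the adaptor through which ATR activates CHEK1 (1.99 ± 0.20), Rpa3 (1.71 ± 0.30) and Rpa2 (1.37 ± 0.22), subunits of the single-strand binding protein, Topbp1, an activator of ATR (1.60 ± 0.20), Timeless (1.56 ± 0.17) and Tipin (1.45 ± 0.34), which protect the fork, Gen1, a resolvase (1.501 ± 0.18), Usp1, which removes ubiquitin from FANCD2 (1.44 ± 0.21), and Mms22l, which acts at stalled forks (1.28 ± 0.18). Their adjusted p lay between 8.57e-05 (Fignl1) and 0.0128 (Tipin). By role, 6 of 16 genes of strand exchange, 4 of 12 Fanconi accessory genes, 4 of 13 resection and resolution genes and 6 of 18 signalling genes rose. Among those not called were Rpa1, the large subunit of the binding protein (0.27 ± 0.18, adjusted p = 0.357), and Wdr48, the partner of USP1 (0.003 ± 0.17, adjusted p = 0.995).

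Among markers of cell types, granule precursor genes rose in 6 of 6. Those of mature granule neurons fell in 7 of 7 and of Purkinje cells in 4 of 4 measured. Astrocyte and Bergmann glia markers fell in 5 of 6, oligodendrocyte markers in 4 of 4 measured and endothelial markers in 1 of 5. Dividing cell markers rose in 7 of 7 measured of 8 listed, with a summed intensity of 3024 to 3285 in the tumours and 81.1 to 282 in cerebellum, and S phase markers in 7 of 8, with 2622 to 3149 and 386 to 535. Cerebellum 1 read above cerebellum 2 in 6 of the 7 dividing cell markers, by a median of 1.30 log2 units and up to 1.98 in Top2a. It did so in 15 of the 17 repair genes that rose, by a median of 0.19 and up to 0.52 in Atm. The repair genes not called went both ways, from -0.43 in Mus81 to 0.26 in Palb2. The share of all genes with cerebellum 1 above cerebellum 2 is not given. No reading in these lists was 0, but few deposited values lie below 1, so this does not show presence. Microglia and macrophage markers rose in 4 of 6, with sums of 572 to 619 in the tumours and 264 to 324 in cerebellum. The part of these cells in the values of the repair genes was not tested. Lymphoid and germ cell markers, 5 measured of 6, had sums of 74.3 to 106 in the tumours and 95.7 to 112 in cerebellum. Of them 1, Sycp3, fell from dim values.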

How the data were processed

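RNA was isolated with Trizol and labelled as biotin cRNA by Affymetrix's standard method, per the labels' protocols. The authors deposited 1 linear intensity per probe set and array; how it was scaled and background-corrected is not given in the sources, and no detection measure was used. Each array holds from 298 to 477 probe sets with the value 1. Array medians lay between 33.3 and 35.9 on 430A and between 22.5 and 24.0 on 430B, so no further normalization was applied. The number of arrays limits the precision. Groups came from the sample titles. The labels call the arrays of a tissue biological replicates. Each p-value sets a difference against the spread between these samples, which the fit takes as independent. The sample titles do not say whether tumour and cerebellum arrays share an animal.

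Each chip was fitted separately with limma 3.58.1 in R 4.3.3 (lmFit, eBayes with trend, two-sided) on log2(intensity + 16) over all 22626 and 22511 probe sets, with Benjamini-Hochberg adjustment over the chip and a call at an adjusted p below 0.05. No filter on low values was used, because a filter on the mean over arrays would keep dim genes through the tumours; a filter is an alternative. Gene names came from the platform annotation, where 20380 and 14661 probe sets name 1 gene, 691 and 245 several and 1555 and 7605 none; 20351 and 14486 matched RefSeq by Entrez identifier. A gene was represented by 1 probe set: 430A was preferred, then a name without the _s_at or _x_at ending, then the brightest over all arrays, a choice that, like such a filter, can favour the tumours; the mean over probe sets is an alternative. The genes, lists and tests were chosen with earlier results of these data known. Values of every array are given for the 12 largest rises past the test, for genes called lower and for genes whose probe sets differ in call, and of the wider list the 10 largest rises are named. For Rad51c, Mre11a, Eme1, Mus81, Atm and Chek2 they were added after the values were seen, as were Rpa1 and Wdr48. Simulated data with planted changes served to test the fit. Figures used matplotlib 3.10.9 in Python 3.11.15.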

Additional observations from a re-analysis of the deposited data

How the results depend on the processing

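Of the 17 genes called higher, all kept their call under a pseudocount of 1 or 64, quantile normalization, equal array medians, the 430B scaling and eBayes without trend. The median log2 fold change of 0.41 became 0.565 and 0.215 with those pseudocounts. With the lowest 50% of probe sets left out, 21 of the 36 representative probe sets were kept. Where one was lost, another probe set of the gene stood for it if any was left. Of the genes with a probe set left, 25 had the same call as before. In all 11 genes rose and 1 fell, Rad51d (-0.73), now read by the 430B probe set that was called lower. Of the wider pathway 2 genes fell, and 12 probe sets of 430A and 5 of 430B rose. At an adjusted p below 0.01, 11 genes and 4 probe sets of 430B rose and 0 of 430B fell. At a log2 change of at least 1, 8 genes, 13 probe sets of 430A and 2 of 430B rose and 0 of 430B fell. With the brightest probe set 1 gene fell (Rad51d) and Atr had 0.50 (adjusted p = 0.27). Of the wider list, 1 gene fell without the trend and 1 with the mean over probe sets. With the mean over probe sets of the chosen chip, Chek1 fell from 1.78 to 0.879, Fancf from 1.21 to 0.616 and Fanci from 0.77 to 0.413, all still called. Leaving out 1 replicate number, on both chips at once, gave 7 to 17 genes higher, a median of 0.38 to 0.534, 9 to 20 wider genes higher and 0 to 1 lower, 10 to 25 probe sets of 430A higher, and 0 to 9 higher and 0 to 1 lower on 430B. With 1 cerebellum array left, the spread comes from the tumours alone and the lone array is assumed to vary like them. Among these settings, shares of all called are given above only for the 430B scaling and, by gene, the limit of 1 log2 unit. Beyond fewer arrays or features, the cause of these shifts was not tested.

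Deviations of same-numbered tumour and cerebellum arrays correlated at -0.0233 and 0.139 on 430A and at 0.0918 and 0.0158 on 430B. These values cannot decide whether such arrays share an animal, because the deviations of the cerebellum arrays on a chip only mirror each other. The tumour numbers also did not go together between the chips. The replicate block gave 16 genes, 22 probe sets of 430A and 10 of 430B higher, 22 wider genes higher and 1 lower, and Rad51c was the 1 gene whose call ended (0.475, adjusted p = 0.0942).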

Other observations

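Genes known for recombination in meiosis, the division that makes germ cells, were measured among the wider list and the markers. Psmc3ip, which helps DMC1 join strands, rose on 430A by 1.22 ± 0.20 (SE, limma adjusted p = 0.00168), with tumours at 102, 63.4 and 86.8 and cerebellum at 27.5 and 25.6, and its 430B probe set rose by 1.73 ± 0.30. Its partner Mnd1 rose by 0.61 ± 0.16 (adjusted p = 0.0233) from dim values, 9.24, 11.3 and 19.3 against 4.85 and 1.28. Dmc1, the recombinase of meiosis, had -0.09 ± 0.16 (adjusted p = 0.772) with overlapping groups. Sycp3, a part of the chromosome axis in meiosis, fell, also from dim values. It read 3.06, 5.44 and 3.81 in the tumours and 20.8 and 22.6 in cerebellum, or -0.91 ± 0.12 (adjusted p = 4.39e-04). These readings lay below the median of every 430A array, and no detection measure was used. The germ cell markers Ddx4 (0.10 ± 0.14) and Dazl (0.02 ± 0.17) were not called.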
